A study of Mus musculus with 3 samples.

Results

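The genes described are the 7 mouse globins Hbb-y, Hbb-bh1, Hba-x, Hba-a1, Hba-a2, Hbb-bs and Hbb-bt, chosen by name from the 27,994 gene names of the count table. They are the embryonic and adult chains of red cell haemoglobin. The cells were adult cardiac endothelial cells, taken from mice with a transgene that puts green fluorescent protein (GFP) into cells of all kinds, and sorted as GFP+, CD31+ and VE-Cad+ cells without PDGFRA, PDGFRB, CD41 or CD45. They were either used fresh, at 0 h, or grown for 24, 48, 72 or 96 h in aggregates with Mesp1 der PSCs, the PDGFRA+ stromal cells of the E11.5 aorta-gonad-mesonephros (AGM) region that descend from Mesp1-expressing mesoderm. All aggregates received SCF, Flt3L and an interleukin, each at 100 ng per ml, and cells were sorted again as GFP+CD31+VE-Cad+PDGFRA- before the time points were pooled. The second gate did not name CD41 or CD45, so cells with these blood markers were not sorted out after culture, and there was no culture without PSCs among these libraries. Per the study's methods the hearts came from female mice aged 12 to 16 weeks.

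Haemoglobin is a tetramer of 2 α-type and 2 β-type chains, each holding a haem group. In the mouse, the first red cells come from the yolk sac and use the embryonic chains ζ (Hba-x), εy (Hbb-y) and βh1 (Hbb-bh1) beside the α chains, while red cells made later in the fetal liver and adult marrow use α chains (Hba-a1 and Hba-a2) with the adult β chains (Hbb-bs and Hbb-bt). Within the embryonic cells the βh1 gene is known to be used before εy. Because red cells and their debris are full of globin messenger RNA, small numbers of globin molecules in droplets of other cell types are common, so a few cells with very many molecules and many cells with 1 are different measurements.

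The α-type genes lie together on chromosome 11 and the β-type genes on chromosome 7, and each is a protein-coding gene of 3 exons with no other annotated gene over it (GRCm38). On the plus strand of chromosome 11, Hba-x spans chr11:32276400-32278116, Hba-a1 chr11:32283511-32284465 and Hba-a2 chr11:32296489-32297298. On the minus strand of chromosome 7, transcription meets Hbb-y first, at chr7:103851749-103853216, then Hbb-bh1 at chr7:103841637-103843164, Hbb-bs at chr7:103826534-103828096 and Hbb-bt at chr7:103812524-103813996.

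The promoters are shown because the members were counted together in some cells and apart in others, as given below. RefSeq (GRCm38.p6) gave a promoter for 6 of the 7 members, none for Hbb-bh1. The 120 bases before each RefSeq start are printed 5′ to 3′ on the gene's strand, for Hbb-y (chr7:103853208-103853327), Hbb-bs (chr7:103827929-103828048) and Hbb-bt (chr7:103813924-103814043) on the minus strand and for Hba-x (chr11:32276480-32276599) and Hba-a2 (chr11:32296372-32296491) on the plus strand. Capitals mark the box CACCC, the box known as CCAAT, the core of GATA motifs (GATAA) and the ATA box, taken as ATAAAA or as TATAA, each also as its reverse complement, and neighbouring marks can touch.
Hbb-y: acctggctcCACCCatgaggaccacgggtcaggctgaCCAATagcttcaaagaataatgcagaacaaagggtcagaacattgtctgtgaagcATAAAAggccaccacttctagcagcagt
Hbb-bs: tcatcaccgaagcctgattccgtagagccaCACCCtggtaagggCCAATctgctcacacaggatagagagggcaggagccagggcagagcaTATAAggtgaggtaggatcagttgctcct
Hbb-bt: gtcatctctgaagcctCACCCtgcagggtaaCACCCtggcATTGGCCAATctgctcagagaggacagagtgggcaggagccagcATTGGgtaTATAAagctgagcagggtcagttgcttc
Hba-x: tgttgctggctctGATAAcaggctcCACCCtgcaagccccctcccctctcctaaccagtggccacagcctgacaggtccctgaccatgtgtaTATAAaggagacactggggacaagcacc
Hba-a2: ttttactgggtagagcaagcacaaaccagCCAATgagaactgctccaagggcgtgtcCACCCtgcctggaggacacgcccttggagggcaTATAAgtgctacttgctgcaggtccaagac

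CACCC, the kind of box that erythroid Krüppel-like factors are known to bind, stood in 6 of 6 member promoters and in 31.7% of 32,851 promoters of the same length. CCAAT stood in 5 of 6 members (all but Hba-x) against 21.3% of promoters, and ATAAAA or TATAA in 6 of 6 against 16.7%. All 3 kinds together were found in 5 of 6 members and in 0.895% of promoters. GATAA, the core that GATA factors are known to bind, was in 1 of 6, Hba-x, against 10.5%. These are matches of letters in a short window and say nothing of binding.

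The promoters of Hba-a1 and Hba-a2 were identical over the aligned bases (100%), and the last 300 transcript bases, where 3′ libraries read, were 99.6% identical. Of 90-base windows in that stretch of Hba-a1, 57.3% also occurred in Hba-a2, so how counting divided reads between these genes is uncertain. For Hbb-bs and Hbb-bt the last 300 bases were 87.5% identical and 24.6% of Hbb-bs windows occurred in Hbb-bt. No window was shared between any other pair of members, so the split between Hbb-y, Hbb-bh1, Hba-x and the adult pairs does not carry this doubt.

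The table held 9562 cells with 252,339,042 unique molecular identifiers (UMIs, each 1 captured molecule) and a median of 21,225.5 UMIs per cell. Cell barcodes named 3 libraries, with 3507, 3958 and 2097 cells and median depths of 23,651, 13,440.5 and 38,312 UMIs. No label tied a library to a pool or a cell to a time point, so the table counts as 1 sample. The clusters were built from the same counts, so no test between them was run, and values for each library are given as a description. All intervals are 95% intervals for counting error only. The 13 barcodes shared by 2 libraries (26 cells) carried 8 globin UMIs in all. None of the 8 cells called as doublets was rich in globin as defined below. With calls for only 0.0837% of cells, this cannot say whether globin-rich cells were doublets. The libraries went against the stated sex of the hearts. At least 1 UMI of the Y-linked genes Ddx3y, Eif2s3y, Kdm5d or Uty was found in 58.7%, 50.5% and 58.5% of the cells of libraries 1, 2 and 3, while Xist, transcribed from the inactive X chromosome of females, was found in 39.5%, 48.7% and 44.3%. Over all libraries 55.2% of cells had a Y-linked UMI, 44.4% had Xist and 9.89% had both, and the Y-linked share lay between 53.1% and 62.3% in each of the 7 clusters. What these cells' sex means for their source was not tested.

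The authors' 7 clusters are used throughout. Clusters 0, 1 and 2 held 728, 799 and 5396 cells, with the arterial endothelial genes Gja5 and Gja4 leading cluster 0, the inflammatory genes Il1a, Saa3 and Csf3 leading cluster 1 and the endothelial genes Aplnr and Emcn leading cluster 2. Cluster 3 (239 cells) was led by the pluripotency or germ cell genes Dppa5a and Utf1, and cluster 4 (518 cells) by the stromal collagens Col1a1 and Col1a2. Cluster 5 (1572 cells) held the myeloid genes S100a9, Mpo, C1qb and Csf1r, and cluster 6 (310 cells) the platelet genes Pf4, Ppbp and Treml1.

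Globin RNA was rare in this table and lay almost entirely in a few cells. The 7 members had 196,489 UMIs, 0.0779% of all UMIs. No globin UMI was found in 6421 cells (67.2%), and 1963 of the other 3141 cells had exactly 1. The cell with the most, in cluster 5 of library 2, had 23,840 globin UMIs, which is 12.1% of all globin UMIs in the table. The 10 richest cells held 71.7%, the 100 richest 96.1%, and 6 cells held 50% of the total.

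**Figure D1:**
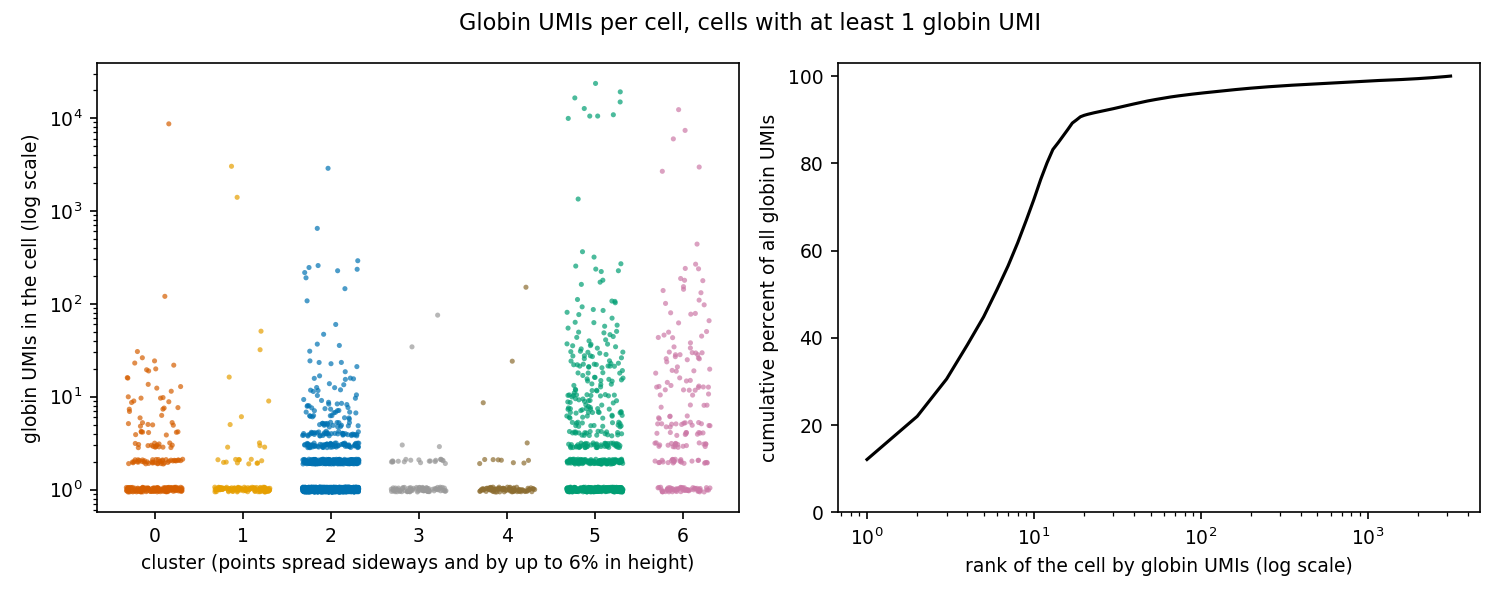
Left, globin UMIs per cell (log scale) for cells with at least 1, by cluster and jittered sideways. Right, the running share of all globin UMIs, in percent, against the rank of the cell (log scale). Most cells with any globin have 1 UMI, and the 10 richest cells hold 71.7% of the total.

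Hbb-y, the εy chain, was the most abundant member, with 92,532 UMIs in 1699 cells (17.8% of cells), or 47.1% of globin UMIs. Hba-x followed with 47,956 UMIs in 692 cells (7.24%) and Hbb-bh1 with 21,456 in 569 cells (5.95%). Together the 3 embryonic chains made 82.4% of globin UMIs. Of the adult chains, Hba-a1 had 14,839 UMIs in 367 cells, Hbb-bt 7627 in 572, Hba-a2 6113 in 205 and Hbb-bs 5966 in 269.
The order by cells was not the order by molecules: Hbb-bt was found in about as many cells as Hbb-bh1, with far fewer UMIs. The 10 richest cells of each gene held between 52.3% (Hbb-bt) and 85.0% (Hbb-bs) of its UMIs. For Hbb-bs 2 cells held 50% of the UMIs and 1 cell 27.5%, whereas for Hbb-bt 10 cells held 50%.

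By cluster, all members but Hbb-bs were highest in clusters 5 and 6 or, for Hba-a2, in clusters 1 and 5. Levels are UMIs per 10,000 UMIs of all genes, and the intervals below count molecules as if they were independent of the cell, which they were not. Hbb-y stood at 15.8 (15.6 to 16.1), 11.0 (10.9 to 11.1) and 3.80 (3.70 to 3.91) in clusters 6, 5 and 0, and between 0.0769 and 0.226 in clusters 1 to 4. Hba-x was at 8.09, 5.82 and 2.10 in clusters 6, 5 and 0 and from 0.0211 to 0.0683 in the others. Hbb-bh1 was at 4.82, 2.37 and 1.02 in these clusters and from 0.0110 to 0.0911 in the others.
Over all cells the 3 embryonic chains thus shared the order cluster 6, 5, 0. By library, only Hbb-bh1 kept that order in all 3, and Hbb-y kept it in libraries 1 and 2. For Hbb-y the cluster 6 levels were 24.2, 20.0 and 0.149 in libraries 1, 2 and 3, and the cluster 5 levels 16.1, 18.4 and 0.0872, so library 3 lay more than 100-fold below the others. In cluster 0 the 3 libraries gave 0.333, 11.4 and 0.609, and 1 cell of library 2 held 4165 of the cluster's 4787 Hbb-y UMIs. Cluster 6 lay above cluster 5 in each library for Hbb-y and Hbb-bh1, but the gap was smaller than the spread between libraries. For Hba-x it did so in library 1 alone, at 13.6 against 8.52, and lay below it in libraries 2 (8.67 against 9.69) and 3 (0.0127 against 0.0387).

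The adult chains had other orders. Hba-a1 was at 2.58 in cluster 6 (3.19, 3.30 and 0.976 in the 3 libraries), and at 1.56, 1.10 and 0.50 in clusters 5, 1 and 0. Hbb-bt was at 1.29, 0.803 and 0.676 in clusters 6, 5 and 1 and at most 0.156 elsewhere, and it was the one member whose cluster 6 level in library 3 lay within the range of the other libraries (0.922, 1.68 and 1.35). Hba-a2 was at 0.706, 0.655, 0.510 and 0.259 in clusters 1, 5, 6 and 0.
Hbb-bs was highest in cluster 1, at 2.98 (2.86 to 3.09), against 0.213, 0.185 and 0.134 in clusters 5, 6 and 2. The cluster 1 value came from 8 of 799 cells, with library levels of 2.20, 8.85 and 0.0113, and 1 cell held 1643 of the 2503 UMIs. The library values overlapped between clusters for each adult chain, and for none of the 4 was the order of clusters 1, 5 and 6 the same in the 3 libraries.

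**Figure D2:**
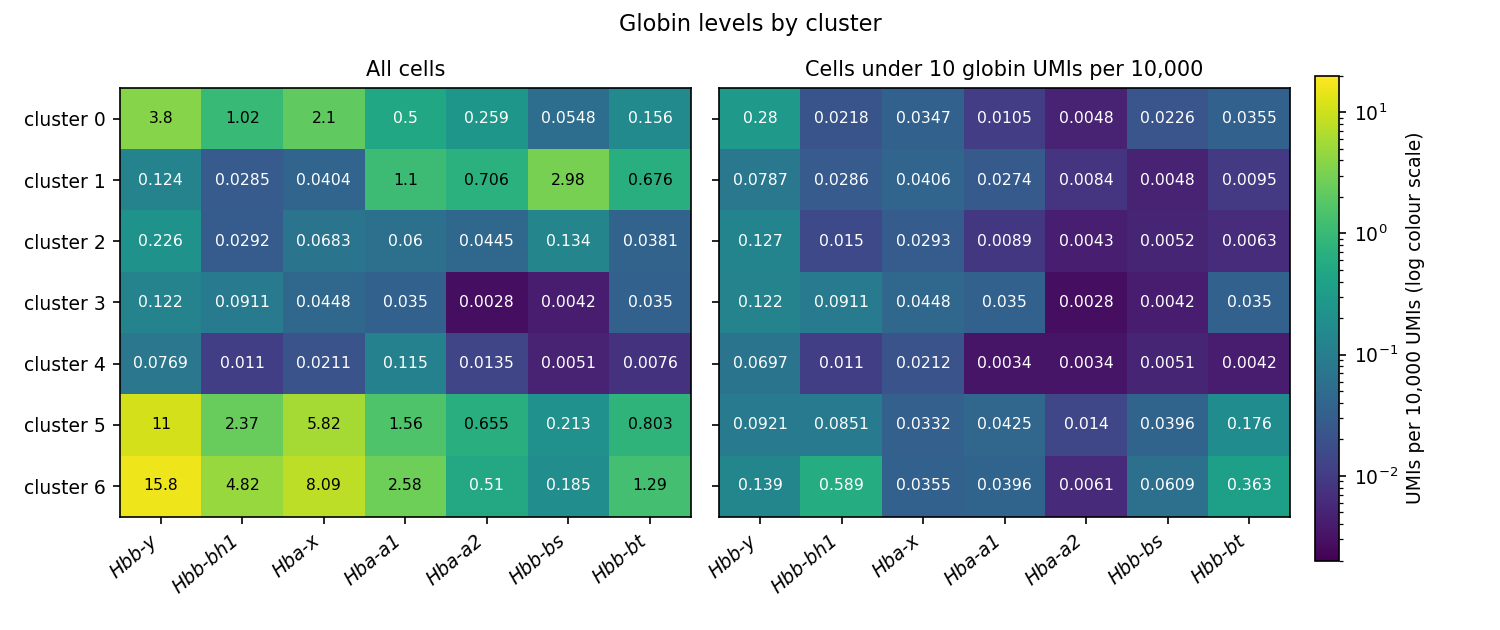
Heat maps of the level of each member (UMIs per 10,000, log colour scale, values printed) in the 7 clusters, over all cells on the left and over cells with under 10 globin UMIs per 10,000 on the right. On the left Hbb-y reaches 15.8 in cluster 6. On the right the highest level is that of Hbb-bh1 in cluster 6, at 0.589.

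Against the other 6 clusters together, 6 of 7 members were at least 2-fold higher in cluster 5 (all but Hbb-bs), where 9.98% of 15,915 genes were. In cluster 6 the same 6 members were at least 2-fold higher, against 7.87% of genes. The median log2 ratio of the members was 2.57 in cluster 5 and 2.32 in cluster 6, while that of all genes was -0.23 and -0.24. None of the 7 was at least 2-fold lower in cluster 5 or 6 (29.2% and 26.4% of genes). In cluster 1, 3 of 7 members were at least 2-fold higher (Hba-a2, Hbb-bs and Hbb-bt, with 18.3% of genes) and 3 of 7 at least 2-fold lower (the embryonic chains, with 16.5% of genes). All 7 were at least 2-fold lower in clusters 2, 3 and 4, where 25.2%, 26.9% and 11.1% of genes were, and none was higher (5.99%, 13.3% and 21.2% of genes). In library 3 alone some of these turned: Hba-a2 and Hbb-bs had log2 ratios of 2.04 and 1.25 in cluster 2, and Hbb-bh1 2.38 in cluster 3. In cluster 0, 1 of 7 was lower (Hbb-bs, with 15.2% of genes) and 0 of 7 higher (9.78% of genes).
The members were not independent, since the same few cells carried several of them. Only Hbb-bh1 and Hbb-bt were higher in every library in both of clusters 5 and 6. Hbb-bh1 in cluster 6 had log2 ratios of 2.92, 2.40 and 3.52 in libraries 1, 2 and 3 and Hbb-bt 1.79, 2.10 and 3.29. In cluster 5 they had 2.82, 2.67 and 1.70, and 3.41, 2.49 and 1.61. Hbb-y in cluster 5 went from 3.28 and 3.01 in libraries 1 and 2 to -0.77 in library 3, and Hba-a1 from 3.16 and 2.38 to -0.44. Hbb-bs in cluster 1 had 4.61, 6.99 and -4.51.

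Clusters 5 and 6 together had an embryonic globin level of 20.6, against 0.831 in clusters 0, 1 and 2, a log2 ratio of 4.63 (4.61 to 4.66). The library ratios were 7.37, 3.81 and 0.61. Adult globin was at 3.43 against 0.601, a log2 ratio of 2.51 (2.48 to 2.55), with library ratios of 3.74, 2.43 and 0.80. Both sums were thus higher in clusters 5 and 6 in each library, and by the least in library 3. Leaving out the 10 cells with the most globin moved the embryonic ratio to 2.01 and the adult ratio to 0.91.

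Shares of cells with a globin UMI gave a different order from levels, and depth had to be made equal to read them, since median depths ran from 7875 UMIs in cluster 1 to 36,065.5 in cluster 5. After 5000 UMIs were drawn from each cell, leaving out the 90 cells with fewer, clusters 3 and 4 served as the reference, because neither Dppa5a+ cells nor stromal cells are known to make haemoglobin. Their median depths before the draw were 23,684 and 19,475.5. This reference was not free of erythroid RNA. Klf1, an erythroid transcription factor, had 32 UMIs in 6 cells of cluster 3 and 6 UMIs in 6 cells of cluster 4. A cell of cluster 4 held 157 globin UMIs. Hbb-bh1 was found in 23.0% (18.4 to 28.1) of cluster 6 cells and 4.66% (3.67 to 5.82) of cluster 5 cells, against 2.09% and 0.977% in clusters 3 and 4. Hbb-bt was found in 15.5% (11.7 to 20.1) of cluster 6 cells and 6.70% (5.51 to 8.05) of cluster 5 cells, against 0.837% and 0.195%. Before the draw, the shares of cells above 0.5 UMIs per 10,000 were 26.5% and 6.42% for Hbb-bh1 and 18.1% and 10.1% for Hbb-bt in clusters 6 and 5.
Thus Hbb-bh1 and Hbb-bt were widely detected in cluster 6, where the median depth was 32,186, and not only in its richest cells. Hba-a1 was found in 7.12% of cluster 6 cells and Hbb-bs in 5.50%, against at most 0.586% and 0.418% in the reference clusters.
Hbb-y, which had the most molecules, did not follow this pattern. It was found in 8.09% (5.30 to 11.7) of cluster 6 cells, 5.87% (4.76 to 7.15) of those of cluster 5 and 7.95% (4.85 to 12.1) of those of cluster 3, so the intervals of clusters 5 and 6 overlapped that of cluster 3. Its highest share was in cluster 0, at 10.5% (8.38 to 13.0), and its lowest, 3.12%, in cluster 4, the other reference. The part of free RNA in these shares was not tested. Hba-x lay between 1.67% in cluster 3 and 4.21% in cluster 6, with overlapping intervals (0.458 to 4.23 and 2.26 to 7.09).

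Cells with at least 10 globin UMIs per 10,000 UMIs of the cell (CPTT) were taken as globin-rich, a range of 1 measure and not a cell type. There were 116, or 1.21% of cells, and they held 96.0% of globin UMIs. The last cell inside the limit had 10.1 CPTT, the first outside 9.90, and 34 cells lay between 8 and 12. Cluster 6 held 32 among 310 cells (10.3%, 7.17 to 14.3) and cluster 5 held 46 among 1572 (2.93%, 2.15 to 3.88). Clusters 0, 1, 2 and 4 held 13, 5, 19 and 1, which is 1.79%, 0.626%, 0.352% and 0.193% of their cells. Cluster 3 had 0 of 239, which allows a share of up to 1.26% when 3 cells are taken as the limit of a count of 0. The libraries gave 35, 65 and 16 such cells, which held 97.3%, 96.7% and 68.9% of the globin UMIs of libraries 1, 2 and 3. In library 3 the rich cells' globin was 8.38% embryonic, against 86.6% and 83.3% in libraries 1 and 2.

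The rich cells did not share one composition. Grouped by the member with the most UMIs, a grouping chosen after the values were seen, 46 were led by Hbb-y, 29 by Hbb-bh1, 17 by Hbb-bt, 12 by Hbb-bs, 11 by Hba-a1 and 1 by Hba-x. None was led by Hba-a2.

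**Figure D3:**
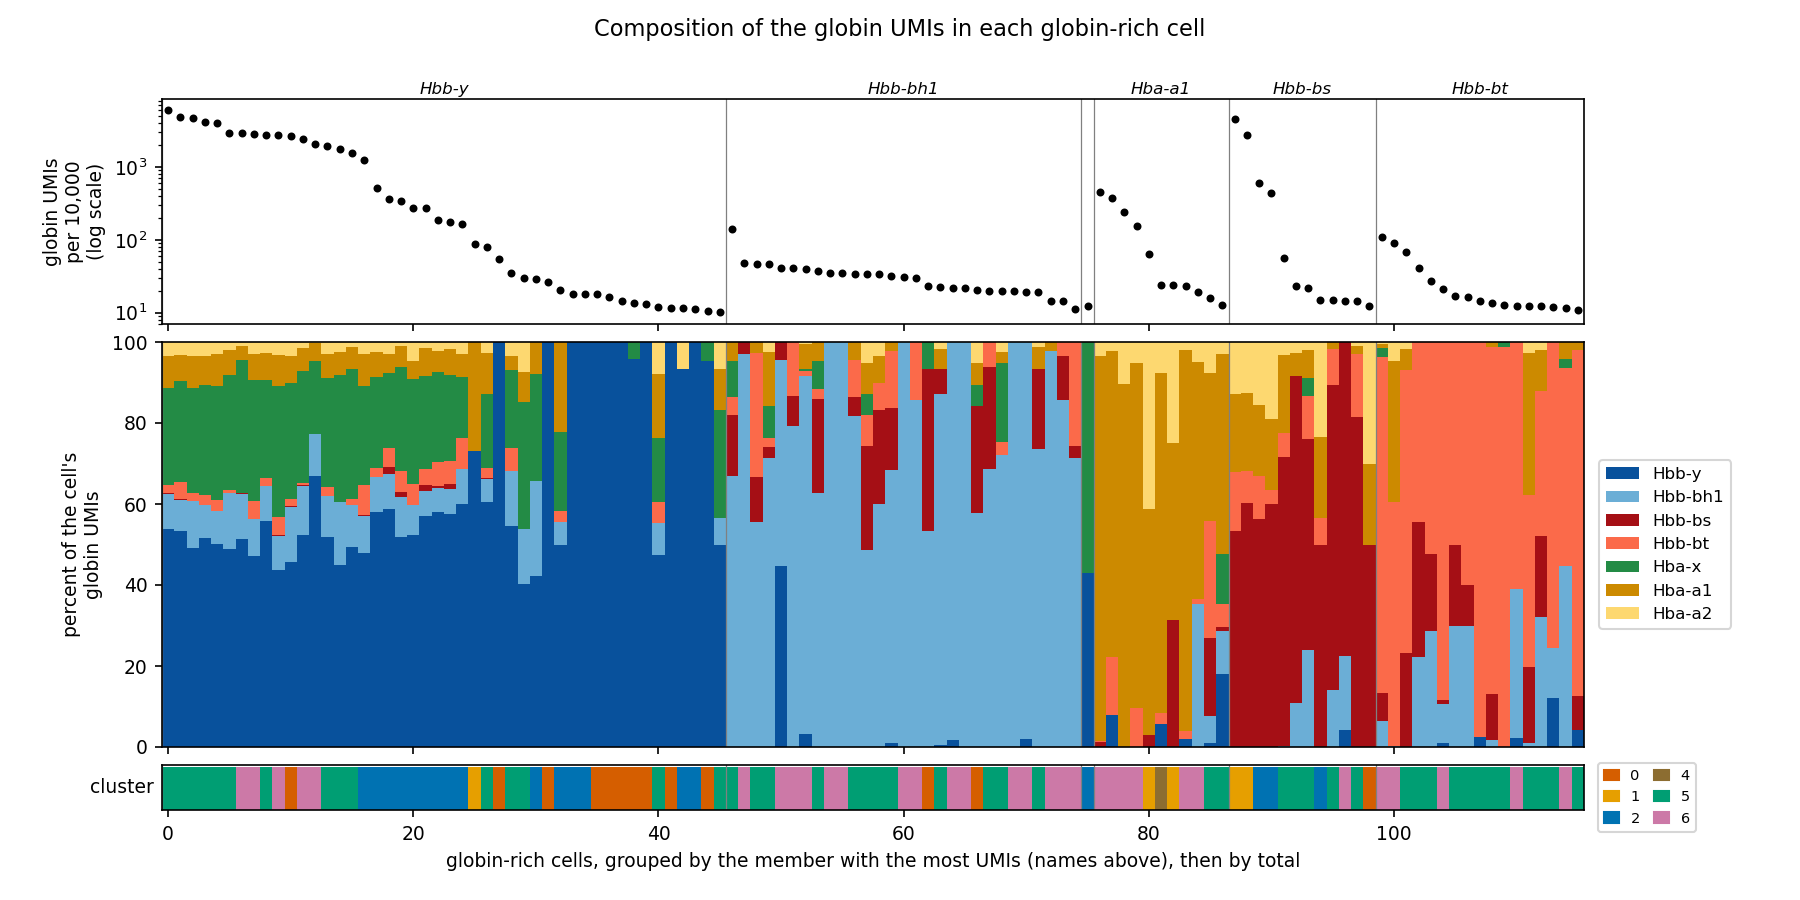
The 116 globin-rich cells, 1 column each, grouped by leading member and ordered by globin UMIs per 10,000 UMIs (CPTT, top, log scale), with the share of each member in the cell's globin UMIs (middle, percent) and the cell's cluster (bottom). The unlabelled column is the 1 cell led by Hba-x. The cells led by Hbb-y with the highest CPTT hold a mixture of Hbb-y, Hba-x and Hbb-bh1. The pooled globin of cells led by Hbb-bh1, Hbb-bt or Hba-a1 is mostly that chain, which also defined the group.

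The first group were 17 cells led by Hbb-y with at least 1000 CPTT, a limit set after a gap between 608 and 1238 CPTT was seen. They held 87.2% of all globin UMIs in the table. Globin made up a median of 27.3% of each cell's UMIs, with a range from 12.4% to 59.7%. Libraries 1 and 2 gave 8 and 9 of them and library 3 none. In all, 10 were in cluster 5, 5 in cluster 6 and 1 each in clusters 0 and 2.
Their globin was 51.2% Hbb-y, 27.2% Hba-x, 10.3% Hbb-bh1, 6.52% Hba-a1, 2.70% Hba-a2, 2.04% Hbb-bt and 0.0869% Hbb-bs, and the α-type chains made 36.4%. The top cell had 12,716 UMIs of Hbb-y, 5907 of Hba-x, 1846 of Hbb-bh1, 1536 of Hba-a1, 1042 of Hbb-bt, 778 of Hba-a2 and 15 of Hbb-bs. A cell of cluster 6 in library 1, 6th by globin, had 6344, 3339, 1456, 677, 88, 191 and 30 in that order. Hbb-y made a median of 50.8% of globin in the 10 cells of cluster 5 and 51.3% in the 5 of cluster 6, and at most 55.7% and 66.9%, while α-type chains ranged from 33.5% to 39.4% and from 22.7% to 43.3%.
Most genes that are known from maturing red cells were found with it. Alas2, the erythroid enzyme that starts haem synthesis, and Blvrb, a red cell reductase, had UMIs in 17 of 17 cells. Car2, an erythroid carbonic anhydrase, and Slc25a37, the mitochondrial iron importer, were in 16 of 17. The membrane genes Epb42 and Slc4a1 were in 14 and 13, the receptor Epor in 13, and the transcription factors Klf1 and Gata1 in 12 and 10. Mki67, a gene of dividing cells, was in 16. No UMI was found of Bcl11a, which represses embryonic globin genes, of Myb, a gene of early progenitors, or of Car1, another carbonic anhydrase of red cell precursors, which allows up to 0.0756 per 10,000 UMIs of genes other than globin for each. The endothelial genes Cdh5, Kdr and Pecam1 were found in 11, 12 and 11 of the 17, and their part in these counts was not tested. Y-linked genes were found in 9 of the 17, Xist in 12 and both in 7.

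Smaller amounts of the same embryonic chains were found in 29 further cells led by Hbb-y. In 14 cells of cluster 2, 13 of them from library 2, the pooled globin was 58.5% Hbb-y, 20.9% Hba-x and 7.60% Hbb-bh1. These cells were not alike: in 4 of the 14 Hbb-y made at least 90% of globin. Their other genes were endothelial: the receptor Kdr and the adhesion gene Pecam1 were found in 14 of 14 and Cdh5 (VE-cadherin) in 12, while Alas2 was found in 5 and Klf1, Gata1 and Slc4a1 in none.
In 5 cells of cluster 5 the mixture was 54.4% Hbb-y and 20.9% Hba-x. These carried C1qb, a complement gene of macrophages, in 4 of 5, at 22.9 per 10,000 UMIs of genes other than globin, and no UMI of Gata1, which allows a level of up to 0.221 on that scale.
In 9 cells of cluster 0 the globin was nearly pure Hbb-y. They had 275 UMIs of Hbb-y and 2 of Hba-x among 277 globin UMIs (99.3% Hbb-y), and none of the other 5 chains. Hbb-y made at least 90% in 9 of 9, as in the 4 cells of cluster 2. Their globin lay between 10.4 and 54.9 CPTT, and the libraries gave 1, 6 and 2 of them. Cdh5, Kdr and Pecam1 were found in 9 of 9, as was Igf2bp1, an RNA-binding gene of fetal cells. Igf2bp1 was not particular to these cells, since it was found in 659 of all 728 cells of cluster 0. Klf1, Gata1, Alas2, Slc4a1 and Car2 were found in none, and 0 counts allow up to 0.236 per 10,000 UMIs of genes other than globin for each.
Hbb-y was thus found both within the full embryonic mixture and almost alone.

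**Figure D4:**
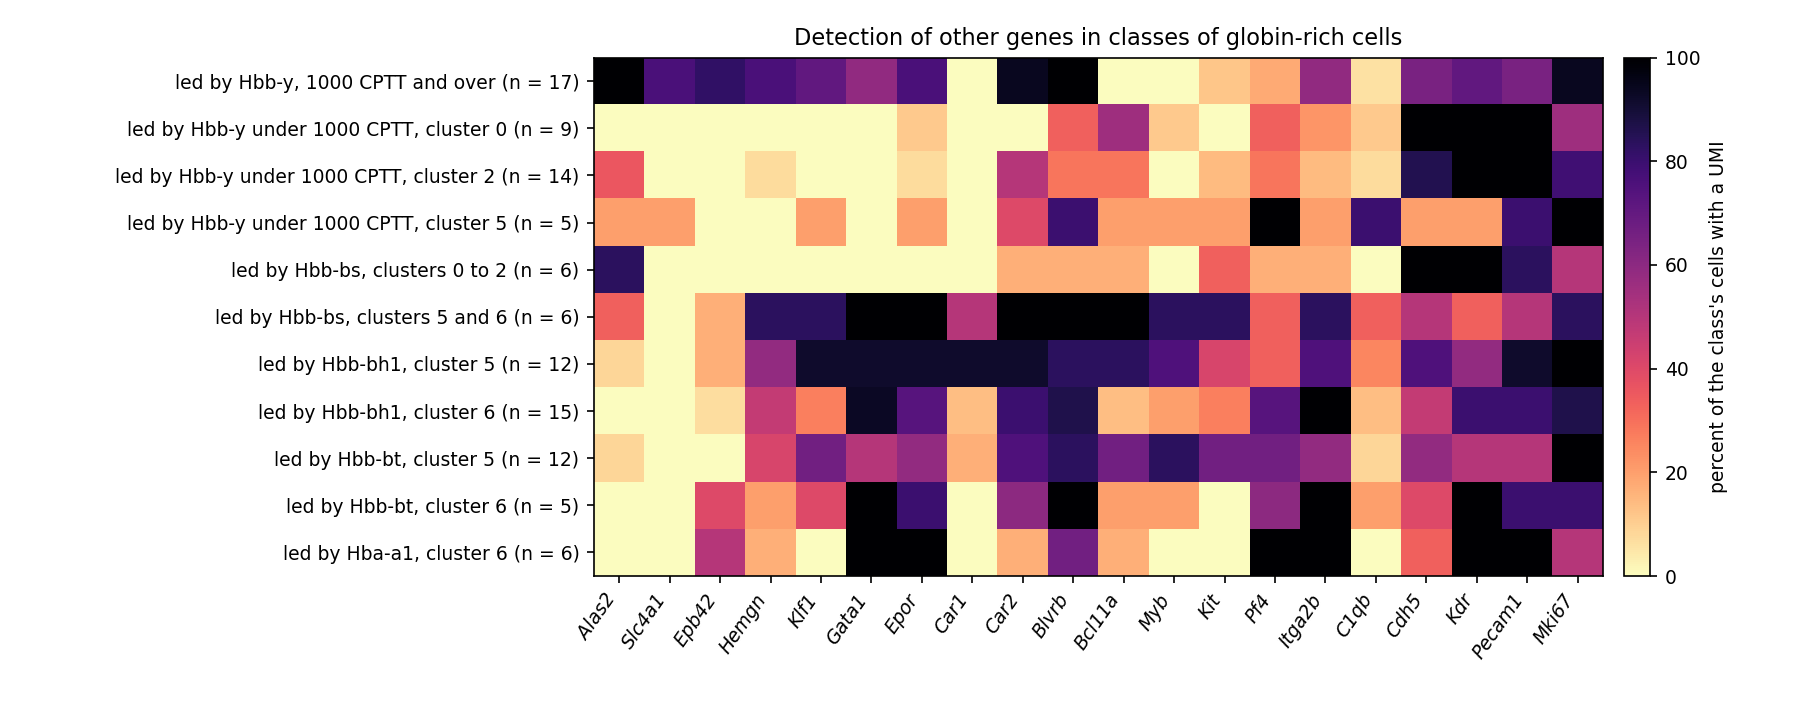
Percent of the cells of each class of globin-rich cell in which a gene had at least 1 UMI, for 20 genes (columns) and 11 classes, with the number of cells beside each class. Red cell genes are found in most cells of the 17-cell class led by Hbb-y, endothelial genes in all 9 cells of the cluster 0 class, and Itga2b in all 15 cells led by Hbb-bh1 in cluster 6. Itga2b is also found in 301 of all 310 cells of cluster 6.

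Adult globin without embryonic globin was found in rich cells of several groups. Some were led by Hba-a1 in clusters 1 and 6, and some by Hbb-bt or Hbb-bs in cluster 5. It was also found in all 6 cells of clusters 0 to 2 led by Hbb-bs. These 6 cells had 0 embryonic UMIs, and 55.9% Hbb-bs, 18.6% Hba-a1, 14.0% Hba-a2 and 11.4% Hbb-bt, so that α-type chains made 32.6%. Most of these UMIs were in 3 cells, with 3079 globin UMIs in a cluster 1 cell of library 2, 2899 in a cluster 2 cell of library 3 and 1410 in a cluster 1 cell of library 1. Cdh5 and Kdr were found in 6 of 6 and Alas2 in 5 of 6, while Klf1, Gata1 and Epor were found in none, which allows up to 0.349 on the same scale. These 3 cells account for most of the Hbb-bs level of clusters 1 and 2 given above.
The other 6 cells led by Hbb-bs, in clusters 5 and 6, had at most 204 UMIs of it. In them Gata1, Epor, Blvrb, Car2 and Bcl11a were found in 6 of 6 and Klf1 and Myb in 5 of 6. Hbb-y was absent from 5 of the 6. Adult β globin therefore stood beside erythroid regulators in these cells and beside endothelial genes in the cells of clusters 0 to 2.

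Hbb-bh1, the βh1 chain, led 29 cells, and 23 of them had no UMI of Hbb-y. Libraries 1 and 2 gave 10 and 19 and library 3 none. In 12 cells of cluster 5 it made 71.1% of globin, with 10.0% Hbb-bs and 14.0% α-type chains. Klf1, Gata1, Epor, Car1 and Car2 were found in 11 of 12 and Bcl11a in 10, but Alas2 in 1 and Slc4a1 in 0.
In 15 cells of cluster 6 it made 86.8% of globin, α-type chains made 1.12%, and 13 of the 15 had no α-type UMI at all. Itga2b, the platelet integrin CD41, was found in 15 of 15, Gata1 in 14, and Pf4 and Epor in 11 each. Over all 310 cells of cluster 6, Itga2b, Gata1, Pf4 and Epor were found in 301, 257, 289 and 218, so these genes were common in the whole cluster. Alas2 was found in none of the 15 (up to 0.0687 on the same scale), and in only 8 of all 310 cells of the cluster. In these cells a β-type chain was counted with almost no α-type partner, whereas the 17 cells led by Hbb-y had both.

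Hbb-bt led 17 cells, 12 in cluster 5 and 5 in cluster 6, and made 70.4% of their globin. In the 12 cells of cluster 5 Mki67 was found in 12, Myb in 10 and Klf1 and Bcl11a in 8 each. Over all 1572 cells of cluster 5, Myb, Bcl11a and Klf1 were found in 809, 758 and 243. The 12 cells were mixed: a cell with 110 UMIs of C1qb and a cell with 14 of Mpo lacked Klf1. In the 5 cells of cluster 6 Gata1 and Itga2b were found in 5, and both were common in the whole of cluster 6, as given above.
Hba-a1 led 11 cells, with the reverse imbalance. In the 6 of these in cluster 6, with 3, 2 and 1 in the libraries, Hba-a1 made 85.7% of globin and α-type chains 90.7%. The one with the most had 242 UMIs of Hba-a1, 28 of Hba-a2 and none of any other member, in a cell of 11,348 UMIs. Gata1, Epor, Pf4, Itga2b and Kdr were found in 6 of 6 and Alas2 and Klf1 in none (up to 0.221).
Across the rich cells, α-type and β-type chains were thus counted together in the cells of highest globin content and often apart in the others. The leading member defined the groups, so a high share of its own chain type in a group follows in part from the grouping.

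In the 9446 cells under 10 CPTT, which held the remaining globin, the order of the members changed. Hbb-y was spread widely and thinly, at 0.280, 0.0787, 0.127, 0.122, 0.0697, 0.0921 and 0.139 in clusters 0 to 6. The cluster 0 level was alike in the 3 libraries, at 0.262, 0.298 and 0.283, above the levels of cluster 2 in the same libraries, 0.130, 0.145 and 0.109. Over all these cells Hbb-y was at 0.120, 0.147 and 0.104 in libraries 1, 2 and 3. Library 3 had no cell of the 17, and the source of these UMIs was not tested.
Hbb-bh1 was at 0.589 in cluster 6 and at most 0.0911 elsewhere. Its cluster 6 values were 0.635, 0.652 and 0.469 in the 3 libraries and the next highest value of any library was 0.261, in cluster 3 of library 3. Hbb-bt was at 0.363 in cluster 6 and 0.176 in cluster 5, against at most 0.0355 in the others, with 0.324, 0.282 and 0.492 in cluster 6 and 0.167, 0.196 and 0.174 in cluster 5.
These levels showed less spread between libraries than the levels over all cells. The limit of 10 CPTT takes out the cells with the most globin, so the smaller spread follows in part from the limit itself.

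The ratio of chains also differed between the rich cells and the rest. Of the UMIs of Hbb-y and Hba-x together, Hbb-y made 65.5% (65.2 to 65.7) in rich cells and 79.7% in cells under 10 CPTT, with 65.0%, 66.0% and 90.1% against 81.2%, 75.5% and 83.2% in the libraries. In cells under 10 CPTT this share was 89.0% (85.4 to 91.9), 81.3% (79.6 to 82.9), 76.6% (67.5 to 84.3) and 73.5% (70.2 to 76.7) in clusters 0, 2, 4 and 5. In clusters 1, 3 and 6 it was 66.0% (55.8 to 75.2), 73.1% (64.2 to 80.8) and 79.7% (72.9 to 85.4). The interval of cluster 0 overlapped that of none of the other 6 clusters, but its lower end lay just above the upper end of cluster 6. α-type chains made 35.8% of globin in the rich cells and 18.1% in the others, with 6.59% (5.26 to 8.13) in cluster 6.
For the sums, adult globin in cells under 10 CPTT was at 0.300 in clusters 5 and 6 and 0.0299 in clusters 0, 1 and 2, a log2 ratio of 3.33 (3.19 to 3.48), with 3.62, 3.01 and 3.54 in the libraries. Embryonic globin was at 0.289 and 0.183, a log2 ratio of 0.66 (0.58 to 0.74), with 0.71, 0.74 and 0.58. With rich cells included, the embryonic ratio was the larger of the pair over the 3 libraries together and in libraries 1 and 2. In library 3 it was the smaller, at 0.61 against 0.80 for adult globin. Under 10 CPTT the adult ratio was the larger in each library.

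Genes of the red cell programme were next compared between the globin-rich cells and the other cells of the same cluster, per 10,000 UMIs of all genes other than the 7 globins. In cluster 5, 15 of 15 red cell protein genes were at least 2-fold higher in the 46 rich cells, with a median log2 ratio of 4.15, where 4.70% of 12,708 genes were that much higher and the median of all genes was -0.02. Of the haem synthesis genes, 12 of 14 were higher (median 2.02), and of the erythroid transcription factors 7 of 12, with 2 of 12 lower, Gata2 and Runx1, which mark stem and progenitor cells (at least 2-fold lower: 11.4% of genes). Alas2 had 236 UMIs in the rich cells and 17 in the 1526 others, a log2 ratio of 8.78 (8.07 to 9.58). Of these 236 UMIs, 228 lay in the 10 cells with at least 1000 CPTT, as did 138 of 140 UMIs of Slc4a1. Klf1 was higher by 2.80 and Epor by 2.89, with 263 of 339 Klf1 UMIs and 128 of 153 Epor UMIs in the 36 other rich cells. In those 36 cells alone, 13 of 13 red cell protein genes, 7 of 13 haem synthesis genes and 7 of 12 erythroid transcription factors were at least 2-fold higher than in the cells that were not rich, with medians of 2.99, 1.16 and 1.30, where 4.67% of genes were.
The ubiquitous first enzyme Alas1 went the other way from Alas2, at -2.20. Of 6 granulocyte genes 6 were at least 2-fold lower (median -4.65), and of 6 macrophage genes 4. Cited4, Ssx2ip and Mt2 were also among the 5 genes of largest ratio in cluster 5, at 3.57, 3.21 and 3.17.

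In cluster 6 fewer red cell genes were higher. Of the 8 red cell protein genes with enough UMIs, 5 were at least 2-fold higher in the 32 rich cells, where 5.49% of 10,119 genes were, together with 4 of 14 haem synthesis genes and 2 of 12 erythroid transcription factors. Alas2 was higher by 8.39 and found in the 5 cells of the first group alone, 91 UMIs against 3 in the others. In the other 27 rich cells alone, 4 of 8 red cell protein genes, 0 of 13 haem synthesis genes and 2 of 12 erythroid transcription factors were at least 2-fold higher, where 5.11% of genes were. Gata1 was at nearly the same level in rich and other cells (0.07, -0.19 to 0.32). No gene of these 3 lists was at least 2-fold lower (4.62% of genes). No megakaryocyte gene of 7 passed 2-fold, and their summed level was 128 in rich cells and 209 in the others. The 3 stromal genes with enough UMIs, the collagens Col1a1, Col1a2 and Col3a1, were all at least 2-fold higher in the rich cells (median 4.43), and the summed level of 5 stromal genes was 1.78 against 0.0924. Col1a2 was found in 3 of the 32 cells, and the part of stromal RNA in these results was not tested.
The other genes that led by ratio in cluster 6, Ptn, Hist1h1c, Hist1h2bc and Peg3, stood between 2.40 and 3.80, and 1 cell held 78.9% of the Peg3 UMIs.

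In clusters 0 and 2 several red cell genes rested on single cells. In the 13 rich cells of cluster 0, 2 of 2 red cell protein genes with enough UMIs were at least 2-fold higher, as were 7 of 13 haem synthesis genes, where 9.29% of 10,947 genes were, and none of either list was as much lower (6.71% of genes). Alas2 (17 UMIs) and Slc25a37 (20) were each found in 1 of the 13 cells, the one cell of cluster 0 above 1000 CPTT. Mt1, Car2 and Blvrb had 95.5%, 78.6% and 85.2% of their UMIs in 1 cell. In the 19 rich cells of cluster 2, 2 of 3 red cell genes and 4 of 14 haem synthesis genes were higher, where 10.2% of 13,647 genes were, and 2 of 14 haem synthesis genes were lower, where 4.16% of genes were. Alas2 had 19 UMIs in 9 of the 19 cells. Sost and Fabp4, which led by ratio, had 92.9% and 84.7% of their UMIs in 1 cell. The 6 endothelial genes were within 2-fold of the other cells in both clusters, with summed levels of 38.0 and 38.6 in cluster 0 and 35.1 and 33.1 in cluster 2.

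Over the 21 combinations of cluster and library, the 5 genes whose log2 level was most like the embryonic sum included Alas2 (Pearson's r = 0.86), Hemgn (0.82), Epb42 (0.80) and Fnbp1 (0.79) among 13,975 genes, the first 3 being red cell genes. Those most like the adult sum were Tnfrsf21 (0.84), Cd84 (0.83), Ppp6r1 (0.82), Sp140 (0.81) and Mtmr1 (0.81), none of them a red cell gene. The points share libraries and differ in depth and number of cells, so these values are a description.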

How the data were processed

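Cells of 3 pools, each of fresh and co-aggregated cells, were profiled with the 10x Genomics 3′ version 3 kit. Per the labels, the authors used Cell Ranger 3.1.0 with the mm10 genome and Seurat 3.1.5. Per the study's methods, libraries were aggregated with correction for batch effects, single cells with at least 5000 UMIs were kept and cells were clustered with the Leiden method in scanpy. The deposited count table held raw UMI counts of 27,998 gene IDs in 9562 cells, of which 9472 had at least 5000 UMIs. A second deposited table gave natural log values, ln(CPTT + 1), which matched the counts, and deposited UMAP coordinates, a score with no unit, were not used. The authors' cluster numbers were taken from the deposited cell annotation.

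Gene IDs were named for 27,645 of 27,998 IDs, and 353 kept their ID. Names, members and gene lists were chosen with earlier results of these data known. A level is the sum of UMIs per 10,000 UMIs, with an exact Poisson interval. Shares have exact Clopper-Pearson intervals and log2 ratios exact conditional binomial intervals, all at 95% and for counting error only. For a count of 0, 3 counts of the total are given as the limit, with no stated confidence. Ratios over all genes used genes with at least 30 UMIs and called those at least 2-fold apart. Red cell genes not listed in the table (Ahsp) were not analysed here. Some genes of the lists are counted in the totals but not reported by name here. The genes named beside the members were the fixed lists, the 5 genes most correlated with each globin sum over 21 cluster and library groups (log2 of level + 0.01, at least 100 UMIs), and the 5 with the largest ratio in globin-rich cells (level of at least 1 there, in clusters with at least 10 such cells). The genes Ddx3y, Eif2s3y, Kdm5d, Uty and Xist were added after the values were seen. For equal depth, 5000 UMIs were drawn from each cell (seed 1). Scrublet, run in scanpy 1.11.5 per library, called 8 of 9562 cells (0.0837%), too few to count as working, although the methods state that singlets were kept. Scripts used Python 3.11.15, numpy 2.4.6, scipy 1.17.1 and pandas 2.3.3 and were tested on simulated data. Barcodes of 3 libraries were treated as 1 sample. Alternatives were equal depth, mean CPTT, other limits for rich cells, leaving out a library, called doublets, the 10 richest cells or rich cells of at least 1000 CPTT, and 1 gene of each adult pair.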

Additional observations from a re-analysis of the deposited data

How the results depend on the processing

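Both ratios of clusters 5 and 6 over clusters 0, 1 and 2 stayed above 0 under every alternative, with large changes in size. The adult log2 ratio, 2.51 over all cells, ran from 1.89 to 2.90 when 1 library was left out. It was 1.61 at 5000 UMIs per cell, 1.60 for the mean CPTT, 0.91 without the 10 cells with the most globin, 2.18 with Hba-a1 and Hbb-bs alone and 3.33 in cells under 10 CPTT. The embryonic log2 ratio, 4.63, ran from 3.55 to 6.49, the highest value being without library 2. It was 4.44, 4.47, 2.01 and 0.66 at 5000 UMIs, for the mean CPTT, without the 10 cells and under 10 CPTT. The embryonic share of globin, 82.4%, ran from 78.2% to 84.6%. It was 74.0% at 5000 UMIs, 74.1% for the mean CPTT, 67.6% without the 10 cells, 88.6% with Hba-a1 and Hbb-bs alone and 66.6% under 10 CPTT. The share held by the 10 richest cells, 71.7%, ran from 74.5% to 90.7% with a library left out, and was 57.5%, 57.7%, 68.2% and 73.3% at 5000 UMIs, for the mean CPTT, without the first 10 cells and with Hba-a1 and Hbb-bs alone. The number of globin-rich cells, 116, ran from 51 (without library 2) to 100, and was 293 at 3 CPTT, 58 at 30, 35 at 100 and 254 for at least 10 UMIs. With no minimum of UMIs, 3593, 5503 and 1915 of 21,185 genes were at least 2-fold higher in clusters 3, 4 and 6 (17.0%, 26.0% and 9.04%). With the minimum of 30 they were 2124, 3371 and 1252 of 15,915 genes (13.3%, 21.2% and 7.87%). Only in cluster 2 was the share smaller with no minimum, at 5.92% against 5.99%. Of the 49 levels or shares by gene and cluster, 37 moved past their counting interval at 5000 UMIs, 37 for the mean CPTT, 37, 37 and 38 with a library left out, 13 without the 10 cells, 2 without called doublets and 0 with cells of at least 5000 UMIs alone. Apart from settings that remove cells or molecules by construction, the cause was not tested. No paired analysis was possible because the 3 samples form 1 group, so the design holds no contrast between samples to pair. Depth limits what a lack of globin means: taking 3 UMIs as the limit of a count of 0 allows up to 0.00238 per 10,000 in cluster 0 and up to 0.00420 in cluster 3.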

Other observations

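Other globins than the 7 were nearly absent. The β-type gene Hbb-bh2 had 0 UMIs in the table and the θ-type gene Hbq1a had 3. Its copy Hbq1b had 38, of which 22 were in cluster 5 and 11 in cluster 6. Mb, the oxygen store of heart muscle, had 179 UMIs, and 91 of them lay in 78 cells of cluster 1, a level of 0.108 per 10,000 (0.0871 to 0.133) against at most 0.0144 in any other cluster. Cygb, cytoglobin, which is known from fibroblasts, had its highest level in cluster 4, at 0.105 (0.0871 to 0.125), with 124 UMIs in 44 cells. Ngb, the globin of neurons, had at most 9 UMIs in any cluster. Mb thus had its highest level in cluster 1, as Hbb-bs and Hba-a2 did, and Cygb in cluster 4, where none of the 7 members did.

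Xist and Y-linked UMIs were found together in 7 of the 17 cells led by Hbb-y with at least 1000 CPTT, in 5 of the 14 cells led by Hbb-y in cluster 2, and in 9.89% of all cells. In the 6 cells of clusters 0 to 2 led by Hbb-bs, 3 had Y-linked UMIs, 3 had Xist and 0 had both. The median depths of these groups were 35,456, 9243.5, 21,225.5 and 7464.5 UMIs.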
